A study of Arabidopsis thaliana with 12 samples.

Results

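The 7 genes described here encode proteins reported to carry abscisic acid (ABA) across plant cell membranes, out of 27655 Arabidopsis genes in the deposited tables. They were listed by gene ID for what is known of their proteins, with earlier results of these data in view: ABCG25 (AT1G71960), ABCG40 (AT1G15520), ABCG22 (AT5G06530), ABCG31 (AT2G29940), ABCG30 (AT4G15230), NPF4.6 (AT1G69850, also AIT1 and NRT1.2) and DTX50 (AT5G52050). All 7 had a mean of at least 1 TPM (transcripts per 1000000) over the libraries and were tested among the 19528 genes that did. The study asked how seedlings of the wild-type accession Col-0 respond to ABA and to a pair of its derivatives with an alkyl chain at the 3' position, propyl in 3'-propyl ABA and the longer butyl in 3'-butyl ABA. Seedlings were raised in multiwell plates at 22 °C and then incubated for 6 h in continuous light in liquid medium with DMSO, the solvent, or with 10 µM of a compound. Their age is 8 days by the sample labels, whereas the series design text says 7 days. Poly(A) RNA of whole seedlings was sequenced from 3 libraries per treatment, 12 in all. The labels do not say whether the 3 came from separate cultures, so p-values measure the spread between these libraries.

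ABA is a stress hormone made largely in vascular tissue and sensed in many others, among them the guard cells that close stomata. Because the hormone is a weak acid that is mostly charged inside cells, its movement between cells depends in part on transport proteins. Exporters such as ABCG25 in vascular cells release it, importers such as ABCG40 in guard cells and NPF4.6 in vascular tissue take it up, and in the seed ABCG25 and ABCG31 release it from the endosperm while ABCG30 and ABCG40 take it into the embryo. DTX50, of the MATE family of efflux carriers, exports ABA in leaves. ABCG22 is a guard cell gene needed for normal stomatal closure and has been placed with the importers.

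The seedlings held more transcript of ABCG22 and ABCG25 with every compound, and of the other 5 genes DTX50, ABCG31, ABCG30 and NPF4.6 differed between compounds in at least 1 direct comparison. ABCG22 averaged 9.95 ± 1.23 TPM in DMSO (SD, n = 3), 51.1 ± 4.77 with ABA, 98.1 ± 5.18 with the propyl and 39.3 ± 2.34 TPM with the butyl derivative. DTX50 rose with 3'-propyl ABA, to 1.93 times its DMSO mean, and fell with 3'-butyl ABA, to 0.545 times. ABCG30 fell with 3'-propyl ABA alone among the compounds, and the direct comparisons with ABA and with 3'-butyl ABA both passed the test. A gene is said to have risen or fallen where limma's moderated test on log2(TPM + 1), fitted to all 12 libraries, gave an adjusted p under 0.05 after Benjamini-Hochberg correction over the 19528 genes. Fold changes are differences of means on that scale, which understates the change of low genes, and TPM is corrected for transcript length, so levels can be set side by side between genes.

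Upstream sequence is shown for the pair of genes that rose with every compound and for DTX50, which the derivatives moved in opposite directions. Each run holds the 300 bases before the annotated start of the gene, 5' to 3' on the gene's strand, from the RefSeq TAIR10.1 genome. Capitals mark ACGTG, the core of the ABA-responsive element bound by bZIP factors, on either strand.
ABCG25 (chr1:27088249-27088548, minus strand): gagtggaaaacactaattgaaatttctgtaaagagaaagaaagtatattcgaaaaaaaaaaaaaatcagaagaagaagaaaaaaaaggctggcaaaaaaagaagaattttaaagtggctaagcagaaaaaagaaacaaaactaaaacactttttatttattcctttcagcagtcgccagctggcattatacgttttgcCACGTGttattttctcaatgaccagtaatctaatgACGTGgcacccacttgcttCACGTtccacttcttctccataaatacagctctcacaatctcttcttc
ABCG22 (chr5:1994962-1995261, minus strand): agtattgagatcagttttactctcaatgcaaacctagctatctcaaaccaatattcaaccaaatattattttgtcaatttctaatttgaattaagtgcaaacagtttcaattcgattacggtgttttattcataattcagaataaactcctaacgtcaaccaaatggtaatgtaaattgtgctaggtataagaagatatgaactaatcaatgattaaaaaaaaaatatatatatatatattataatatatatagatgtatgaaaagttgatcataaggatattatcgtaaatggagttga
DTX50 (chr5:21138403-21138702, plus strand): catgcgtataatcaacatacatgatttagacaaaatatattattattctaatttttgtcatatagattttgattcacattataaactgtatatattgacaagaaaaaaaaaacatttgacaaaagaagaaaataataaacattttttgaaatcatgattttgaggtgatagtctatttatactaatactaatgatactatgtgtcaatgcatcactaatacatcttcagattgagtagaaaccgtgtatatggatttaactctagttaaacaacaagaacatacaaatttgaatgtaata

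The ABCG25 window held 4 matches of ACGTG, 2 of which overlap within a CACGTG, the G-box, which begins at position -102 counted from the start. Neither the ABCG22 nor the DTX50 window held ACGTG on either strand. Sequence outside the windows was not searched, and a link between motifs and changes was not tested. The ABCG40 window held 1 match, at position -122, and those of ABCG31, ABCG30 and NPF4.6 held 0. Of 27437 windows of 300 bases upstream of protein-coding genes, 25.6% held ACGTG and 7.09% held CACGTG, counted on both strands. A match describes the letters of the window and not a bound site.

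**Figure D1:**
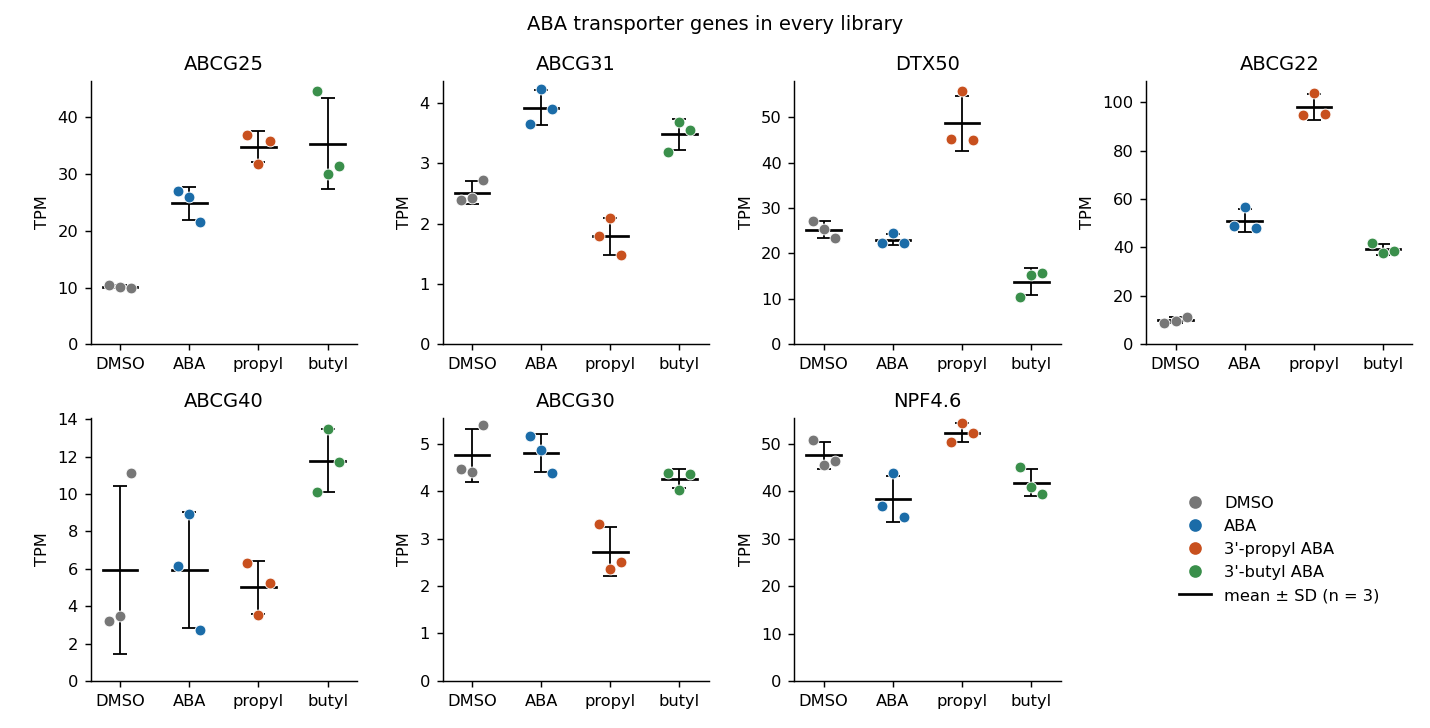
TPM of each ABA transporter gene in every library, 1 panel per gene with its own axis from 0. Points are libraries, horizontal lines are means and error bars are SD (n = 3). ABCG22 with 3'-propyl ABA, at 94.9 to 104 TPM, lies above all of its other libraries, and DTX50 is highest with 3'-propyl ABA and lowest with 3'-butyl ABA.

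Among the exporters, ABCG25 rose with every compound. Its gene lies on chromosome 1, from 27082394 to 27088248 on the minus strand, with 4 exons. The 3 DMSO libraries were at 10.4, 10.1 and 9.97 TPM, and the 3 ABA libraries at 27.0, 26.0 and 21.6 TPM. It was at 36.9, 31.8 and 35.9 TPM with 3'-propyl ABA, and at 44.7, 30.0 and 31.5 TPM with 3'-butyl ABA. Every treated library lay above every DMSO library, and the ABA libraries lay below those of both derivatives. The log2 fold change against DMSO was 1.21 with ABA (SE 0.13, adjusted p = 1.40e-05). It was 1.68 with 3'-propyl ABA (SE 0.13, adjusted p = 2.69e-07) and 1.68 with 3'-butyl ABA (SE 0.13, adjusted p = 9.65e-07). These comparisons share the DMSO libraries.

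Between compounds, ABCG25 was higher with 3'-propyl ABA than with ABA by 0.47 on the log2 scale (95% interval 0.18 to 0.77, adjusted p = 0.0134). That call was lost without ABA replicate 3 (0.38, adjusted p = 0.0536). The difference between 3'-butyl ABA and ABA had nearly the same size and interval (0.48, 0.18 to 0.77) but did not pass the correction over all genes, with an adjusted p of 0.0995. The derivatives did not differ detectably, with an interval from -0.29 to 0.29.

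DTX50, the MATE exporter, is a gene of 1 exon on chromosome 5, from 21138703 to 21140876 on the plus strand. It stood at 27.2, 25.3 and 23.3 TPM in DMSO and at 22.4, 24.5 and 22.4 TPM with ABA. The 3'-propyl ABA libraries stood at 45.2, 55.7 and 45.1 TPM, and those with 3'-butyl ABA at 10.3, 15.4 and 15.6 TPM. The DMSO and ABA libraries overlapped, all 3'-propyl ABA libraries lay above them and all 3'-butyl ABA libraries below. Against DMSO the log2 fold change was 0.91 with 3'-propyl ABA (SE 0.14, adjusted p = 7.75e-05) and -0.85 with 3'-butyl ABA (SE 0.14, adjusted p = 0.000262). With ABA it was -0.12, with an interval from -0.42 to 0.17 and an adjusted p of 0.490.

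The direct comparison of the derivatives gave DTX50 the widest called difference of the 7 genes, -1.77 for 3'-butyl ABA against 3'-propyl ABA (SE 0.14, adjusted p = 1.52e-06). DTX50 was also higher with 3'-propyl ABA than with ABA, by 1.04 (SE 0.14, adjusted p = 0.000103). It was lower with 3'-butyl ABA than with ABA, by a log2 change of -0.73 (interval -1.03 to -0.43, adjusted p = 0.0300). This last call is the least secure of the 3. It was lost when ABA replicate 2, ABA replicate 3 or any of the 3'-butyl ABA libraries was left out (log2 change -0.82 to -0.55, adjusted p 0.0507 to 0.119), and when the 6 libraries compared were fitted alone (adjusted p = 0.0588).

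ABCG31, which acts with ABCG25 in the endosperm, had the lowest mean of the 7 genes in every treatment. It spans 12759973 to 12766794 of chromosome 2, plus strand, with 20 exons. Its DMSO libraries were at 2.39, 2.42 and 2.73 TPM, its ABA libraries at 3.65, 4.23 and 3.90 TPM. Values were 1.80, 2.09 and 1.47 TPM with 3'-propyl ABA, and 3.19, 3.69 and 3.56 TPM with 3'-butyl ABA. All ABA and 3'-butyl ABA libraries lay above DMSO and all 3'-propyl ABA libraries below it.

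The increase of ABCG31 with ABA passed the test, at 0.49 on the log2 scale (SE 0.13, adjusted p = 0.00926). The increase with 3'-butyl ABA (0.35, adjusted p = 0.0428) and the decrease with 3'-propyl ABA (-0.34, adjusted p = 0.0382) lay close to the threshold. The former was lost with a pseudocount of 0.1 (adjusted p = 0.0541), with quantile normalization (0.194), with the 6 libraries fitted alone (0.0654) and without any 1 of 10 of the 12 libraries. The latter was lost with median-of-ratios scaling (adjusted p = 0.111), with quantile normalization (0.395), with the 6 libraries alone (0.111) and without any 1 of 6 libraries. The contrast between compounds was larger: 3'-propyl ABA was below ABA by a log2 change of -0.83 (adjusted p = 0.000384), and 3'-butyl ABA was above 3'-propyl ABA by 0.69 (adjusted p = 0.00109). Between 3'-butyl ABA and ABA the interval ran from -0.42 to 0.15.

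Among the genes placed with the importers, ABCG22 rose most. It spans 1989650 to 1994961 of chromosome 5, minus strand, and has 9 exons in the longest of 4 annotated transcripts. Its DMSO libraries were at 8.83, 9.76 and 11.3 TPM, and its ABA libraries at 48.7, 56.6 and 47.9 TPM. 3'-propyl ABA libraries reached 94.9, 104 and 95.4 TPM, and those with 3'-butyl ABA 41.9, 37.5 and 38.4 TPM. The 4 treatments did not overlap, in the order DMSO, 3'-butyl ABA, ABA, 3'-propyl ABA. The log2 fold change against DMSO was 2.25 with ABA (SE 0.09, adjusted p = 6.62e-09), 3.18 with 3'-propyl ABA (SE 0.09, adjusted p = 1.14e-10) and 1.88 with 3'-butyl ABA (SE 0.09, adjusted p = 3.03e-08).

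ABCG22 was higher with 3'-propyl ABA than with ABA by 0.93 (interval 0.73 to 1.14, adjusted p = 1.37e-05) and lower with 3'-butyl ABA than with 3'-propyl ABA by a log2 change of -1.30 (adjusted p = 8.78e-07). The lower level with 3'-butyl ABA than with ABA, -0.37 with an interval from -0.57 to -0.16, did not pass the correction over all genes (adjusted p = 0.0729), and did so without DMSO replicate 1 (adjusted p = 0.0425). The summed TPM of 6 guard cell marker genes was 69.1 to 83.1 in DMSO, 51.0 to 57.2 with ABA, 40.1 to 48.6 with 3'-propyl ABA and 50.5 to 61.6 with 3'-butyl ABA, with 0 of the 6 listed at 0 in any library. Against DMSO, 3 of the 6 fell and 0 rose with ABA, and 4 fell and 1 rose with each derivative. Of all tested genes, 24.7% fell and 22.0% rose with ABA, 38.5% and 27.5% with 3'-propyl ABA, and 25.6% and 25.1% with 3'-butyl ABA. The summed TPM of 4 phloem companion cell markers was 182 to 209 in DMSO, 298 to 304 with ABA, 327 to 368 with 3'-propyl ABA and 325 to 340 with 3'-butyl ABA. In the same order of compounds, 3, 2 and 3 of the 4 rose against DMSO, beside 22.0%, 27.5% and 25.1% of all tested genes. The summed TPM of 4 leaf markers was 7197 to 10541 with 3'-propyl ABA, against 11608 to 13477 in DMSO, 14011 to 16880 with ABA and 16985 to 18027 with 3'-butyl ABA. All 4 leaf markers were lower with 3'-propyl ABA than with either other compound. Of all tested genes, 26.4% were lower with 3'-propyl ABA than with ABA, and 31.2% were higher with 3'-butyl ABA than with 3'-propyl ABA. The sum of 7 endodermis markers was 46.2 to 120 TPM in DMSO, 36.8 to 89.4 with ABA, 31.7 to 52.8 with 3'-propyl ABA and 97.4 to 128 TPM with 3'-butyl ABA. Between the derivatives, 4 of the 7 were called higher with 3'-butyl ABA and 0 lower, beside 31.2% and 17.6% of all tested genes. Between 3'-butyl ABA and ABA 0 of the 7 were called, beside 1.60% of all genes. Against DMSO, 1 rose and 0 fell with ABA, beside 22.0% and 24.7% of all tested genes. With 3'-propyl ABA 1 rose and 2 fell, beside 27.5% and 38.5%, and with 3'-butyl ABA 1 rose and 0 fell, beside 25.1% and 25.6%. The part of these markers in the results was not tested, and in RNA of whole seedlings a change in the number of cells of a type and a change in RNA per cell cannot be told apart.

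ABCG40, the guard cell importer, had the largest coefficient of variation of the 7 genes in DMSO, with ABA and with 3'-propyl ABA, though not with 3'-butyl ABA. It spans 5331858 to 5338326 of chromosome 1, minus strand, with 21 exons. In DMSO it was at 3.21, 3.45 and 11.1 TPM, and with ABA at 6.16, 8.94 and 2.71 TPM. With 3'-propyl ABA it was at 6.30, 3.51 and 5.22 TPM, and with 3'-butyl ABA at 10.1, 13.5 and 11.7 TPM. DMSO replicate 3 lay among the 3'-butyl ABA libraries, which otherwise stood above all others. The coefficient was 75.8% in DMSO and 52.5% with ABA, 10.3 and 7.14 times what counting its reads alone would give.

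No comparison called ABCG40. Its log2 fold change against DMSO was 0.07 with ABA (interval -0.88 to 1.03, adjusted p = 0.906), -0.05 with 3'-propyl ABA (-1.01 to 0.91, adjusted p = 0.926) and 1.06 with 3'-butyl ABA (0.10 to 2.02, adjusted p = 0.0635). Without DMSO replicate 3 the last value was 1.55 (adjusted p = 0.00434), and without ABA replicate 3 it stayed at 1.06 with an adjusted p of 0.0358. The 3'-butyl ABA and 3'-propyl ABA libraries did not overlap, with a log2 difference of 1.11 (0.15 to 2.07, adjusted p = 0.0551). Fitted on those 6 libraries alone, the same difference had an adjusted p of 0.000909, and without DMSO replicate 3, 0.0138. It also passed without DMSO replicate 1, ABA replicate 2 or ABA replicate 3 (adjusted p 0.0308 to 0.0499). Against ABA the 3'-butyl ABA libraries gave 0.98 (0.03 to 1.94, adjusted p = 0.278).

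ABCG30, which takes ABA into the embryo, spans 8679754 to 8687519 of chromosome 4, plus strand, with 23 exons. It was at 4.46, 4.41 and 5.39 TPM in DMSO and at 5.16, 4.88 and 4.38 TPM with ABA. With 3'-propyl ABA it was at 3.32, 2.36 and 2.50 TPM, and with 3'-butyl ABA at 4.39, 4.03 and 4.37 TPM. All 3'-propyl ABA libraries lay below all others, and the 3'-butyl ABA libraries lay just under those of DMSO. The log2 fold change with 3'-propyl ABA was -0.63 against DMSO (SE 0.13, adjusted p = 0.00111) and -0.65 against ABA (SE 0.13, adjusted p = 0.00216). Against DMSO the interval was -0.28 to 0.31 with ABA and -0.42 to 0.17 with 3'-butyl ABA.

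3'-butyl ABA gave 0.51 more ABCG30 on the log2 scale than 3'-propyl ABA (adjusted p = 0.00795), a call lost with quantile normalization (0.19, adjusted p = 0.236). The annotated span of ABCG30 overlaps that of its neighbour ABCG42 (AT4G15233) on the same strand, and how reads in the overlap were assigned is not given in the sources used here. ABCG42 fell with every compound, from 9.50 TPM in DMSO to 1.50 with ABA, 0.705 with 3'-propyl ABA and 1.73 TPM with 3'-butyl ABA. No stretch of 100 bases within any of the 7 gene spans occurs elsewhere in the genome.

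NPF4.6, an ABA importer that also carries nitrate, was the most abundant of the 7 transcripts in DMSO, and its treatment means stayed between 0.806 and 1.1 times that of DMSO. It spans 26296540 to 26300684 of chromosome 1, minus strand, with 5 exons. Its DMSO libraries were at 50.9, 45.7 and 46.4 TPM and its ABA libraries at 36.9, 43.8 and 34.5 TPM. Values were 50.5, 54.5 and 52.2 TPM with 3'-propyl ABA, and 45.1, 40.9 and 39.5 TPM with 3'-butyl ABA. The ABA libraries lay below DMSO, as did the 3'-butyl ABA libraries by a narrow gap, and the 3'-propyl ABA libraries overlapped with DMSO.

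NPF4.6 fell with ABA by 0.31 on the log2 scale (SE 0.09, adjusted p = 0.0136). Without ABA replicate 3 the change was -0.24 and was not called (adjusted p = 0.0534). With 3'-propyl ABA the change was 0.14 (interval -0.06 to 0.33, adjusted p = 0.203), a value that passed the test with median-of-ratios scaling (0.27, adjusted p = 0.0160). With 3'-butyl ABA it was -0.18 (-0.38 to 0.01, adjusted p = 0.107). 3'-propyl ABA gave more NPF4.6 than ABA by 0.44 (adjusted p = 0.00189) and 3'-butyl ABA gave less than 3'-propyl ABA, with a log2 change of -0.32 (adjusted p = 0.0114).

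**Figure D2:**
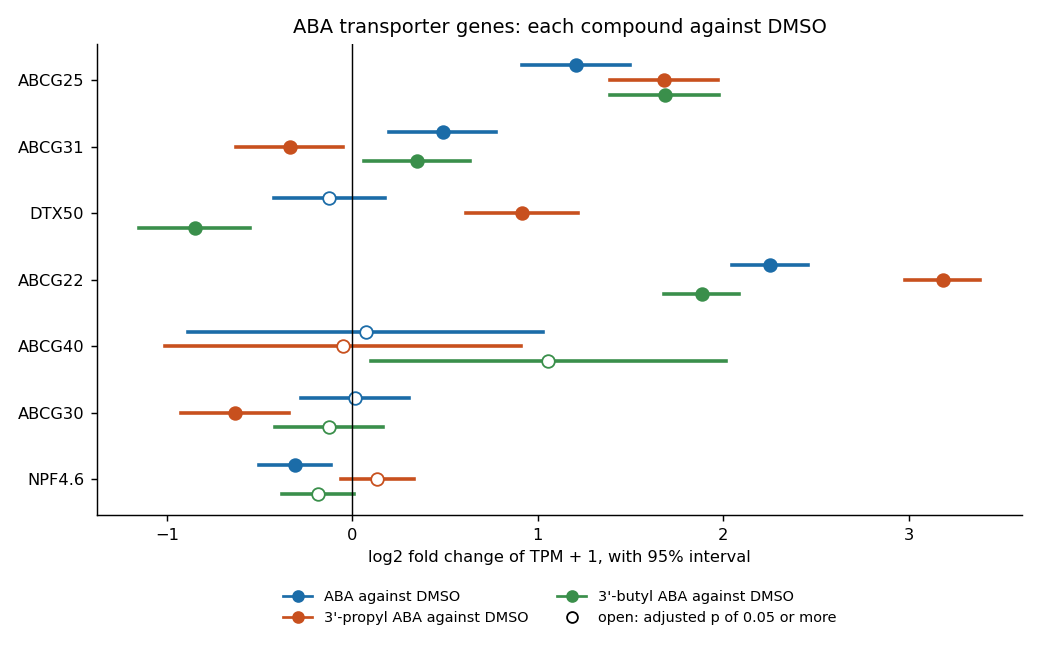
Log2 fold change of TPM + 1 of each ABA transporter gene for each compound against DMSO, with 95% intervals from the fit to all 12 libraries. Filled points passed the test at an adjusted p under 0.05. ABCG25 and ABCG22 lie to the right of 0 with every compound, and DTX50 lies at 0.91 with 3'-propyl ABA and at -0.85 with 3'-butyl ABA.

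The share of the 7 genes called against DMSO was near that of the whole transcriptome. ABA raised 3, lowered 1 and left 3 not called, where 46.7% of all tested genes were called, 22.0% as higher and 24.7% as lower. 3'-propyl ABA raised 3, lowered 2 and left 2 not called, beside 66.0% of all tested genes (27.5% higher, 38.5% lower). 3'-butyl ABA raised 3, lowered 1 and left 3 not called, beside 50.6% (25.1% higher, 25.6% lower). The median log2 fold change of the 7 was 0.07 with ABA, 0.14 with the propyl and 0.35 with the butyl derivative, and that of all tested genes -0.03, -0.12 and 0.00. Ranges of treated and DMSO libraries were apart in 4 of the 7 genes with ABA, 5 with 3'-propyl ABA and 6 with 3'-butyl ABA. The shares over all tested genes were 53.1%, 69.0% and 60.6%.

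Between compounds, 3'-propyl ABA differed from ABA in 6 of the 7 genes, with ABCG25, ABCG22, NPF4.6 and DTX50 higher and ABCG31 and ABCG30 lower, beside 41.8% of all tested genes called (15.5% higher, 26.4% lower). 3'-butyl ABA differed from ABA in 1 gene, DTX50, beside 1.60% of all genes (0.819% higher, 0.783% lower). These counts are unstable: with single libraries left out, 0 to 2 of the 7 genes were called and 9 to 585 of all genes, in place of 313. For the 6 genes not called there, intervals reached from -0.57 (ABCG22) to 1.94 (ABCG40), so differences of that size remain within the data. 3'-butyl ABA differed from 3'-propyl ABA in 5 genes, with ABCG31 and ABCG30 higher and ABCG22, NPF4.6 and DTX50 lower, beside 48.8% of all genes (31.2% higher, 17.6% lower). Ranges of libraries were apart in 6 genes between 3'-propyl ABA and ABA, in 4 between 3'-butyl ABA and ABA and in 6 between the derivatives, beside 51.4%, 25.8% and 61.9% of all genes. All compounds were given at the same dose and time, and the comparisons share libraries with each other.

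**Figure D3:**
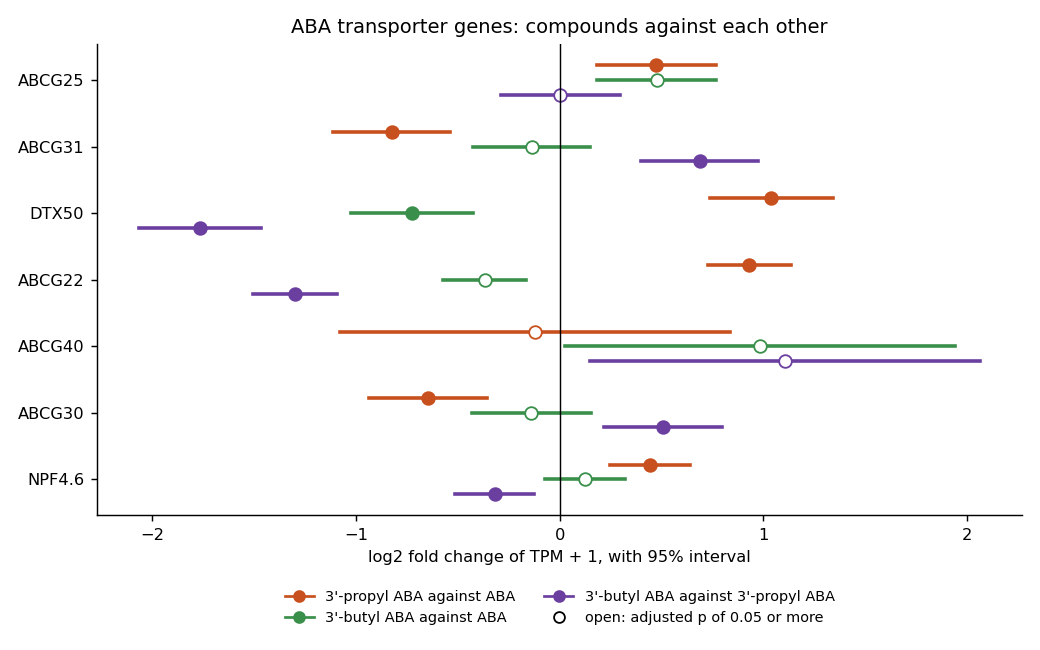
Log2 fold change of TPM + 1 of each ABA transporter gene between compounds, with 95% intervals. Filled points passed the test at an adjusted p under 0.05. Of the comparisons of 3'-butyl ABA with ABA, that of DTX50 at -0.73 is filled, and the intervals of ABCG40 are the widest.

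TPM are shares of a library, and their scaling can move a comparison. Median-of-ratios scaling raised the median of all genes by 0.12 for 3'-propyl ABA against DMSO and by 0.10 against ABA, and lowered it by a log2 shift of -0.12 for 3'-butyl ABA against 3'-propyl ABA. Relative to the median of all genes, the changes with 3'-propyl ABA against DMSO were 3.30 for ABCG22, 1.80 for ABCG25 and 1.03 for DTX50. On the same footing they were 0.25 for NPF4.6, 0.07 for ABCG40, -0.22 for ABCG31 and -0.52 for ABCG30. ABCG40 is the gene whose sign differed from the unshifted value.

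The order of the transcript levels changed with treatment. In DMSO it ran NPF4.6, DTX50, ABCG25, ABCG22, ABCG40, ABCG30 and ABCG31, from 47.6 to 2.51 TPM, and neighbours from ABCG25 to ABCG30 in that order overlapped in range. With ABA and with 3'-propyl ABA, ABCG22 was the highest, above NPF4.6 in every library. Overlapping neighbours were ABCG25 with DTX50 and ABCG40 with ABCG30 under ABA, and NPF4.6 with DTX50 under 3'-propyl ABA. With 3'-butyl ABA the ranges of NPF4.6 and ABCG22 and those of ABCG22 and ABCG25 overlapped at the top, and those of DTX50 and ABCG40 overlapped below. ABCG31 came last in each treatment, below every library of its neighbour ABCG30, although ABCG40 was lower still in ABA replicate 3.

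The values rest on 48 to 2160 reads per gene and library, recovered from the TPM of each gene and its exon length, in libraries of 9.64 to 12.4 times 1000000 such reads. Over the 28 pairs of gene and treatment, the observed coefficient of variation was a median of 1.78 times that of counting alone, and more than 2 times in 11 of them. For ABCG31, the gene with the fewest reads, the ratio was 0.665 to 1.27, so its spread was about that of counting. ABCG25 in DMSO had the lowest coefficient of variation, 2.07%, below the 7.95% that counting gives, and with 3 libraries such an estimate is itself imprecise.

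**Figure D4:**
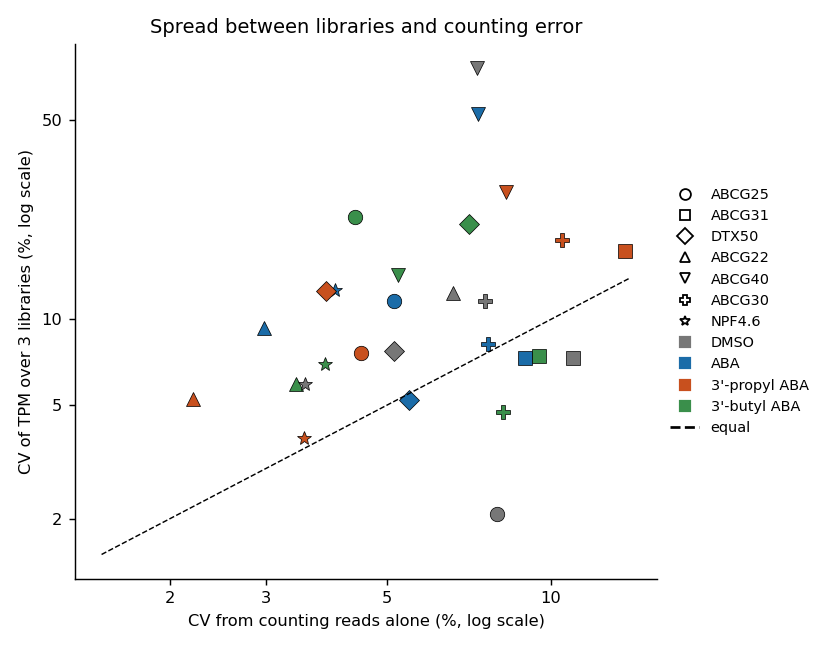
Coefficient of variation (CV) of TPM over the 3 libraries of a treatment against the CV that counting reads alone would give, both in percent on log axes, for each ABA transporter gene and treatment. Shapes are genes, colours are treatments and the dashed line marks equality. ABCG40 in DMSO (75.8%) and with ABA (52.5%) lies farthest above the line.

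ABA replicate 3 stood apart from the other ABA libraries on the third principal component of all tested genes, which held 5.59% of the variance. DMSO replicate 1 stood apart on the second, at 0.650 where the other DMSO libraries were at -28.7 and -26.8. Each of the guard cell, companion cell, root hair, endodermis and leaf markers was above 0 in every library. DMSO replicate 1 had the highest root hair marker sum of the DMSO libraries, 165 TPM against 57.4 and 69.1, and ABA replicate 3 the lowest of all libraries, 25.8 TPM. The endodermis marker sum was likewise higher in DMSO replicate 1, at 120 TPM, than in the other DMSO libraries, at 47.0 and 46.2 TPM. The sum of 6 seed storage genes was 1537 TPM in ABA replicate 3 and at most 654 TPM elsewhere. ABCG40 was at its lowest of all libraries in ABA replicate 3. With both libraries left out, a choice made after the values were seen, the calls of NPF4.6 with ABA (-0.19, adjusted p = 0.131), of ABCG25 between 3'-propyl ABA and ABA (0.38, adjusted p = 0.0531) and of ABCG31 with both derivatives (adjusted p = 0.0619 and 0.104) were lost. ABCG40 then was called between 3'-butyl ABA and 3'-propyl ABA (adjusted p = 0.0208), and 0 other calls of the 7 genes changed.

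Among their relatives, ABCG22 and ABCG25 belong to the smaller, WBC-type ABCG proteins. Of 26 other genes of that type 21 were tested, and 13 rose and 3 fell with ABA, 12 and 6 with 3'-propyl ABA, and 11 and 3 with 3'-butyl ABA. Over all tested genes 22.0% rose and 24.7% fell with ABA, 27.5% and 38.5% with 3'-propyl ABA, and 25.1% and 25.6% with 3'-butyl ABA. The median log2 fold changes of the 21 were 0.44, 1.02 and 0.35. ABCG6, which exports suberin components, went from 2.76 ± 2.21 TPM (SD, n = 3) in DMSO to 118 ± 32.4 with ABA, 199 ± 35.0 with 3'-propyl ABA and 116 ± 20.0 TPM with 3'-butyl ABA. ABCG16 reached 49.2 ± 4.76 TPM with 3'-propyl ABA from 1.87 ± 0.222 in DMSO. ABCG1 reached 132 ± 12.6 TPM from 7.55 ± 0.431. Over all 35 tested ABCG genes, the log2 fold change of ABCG22 ranked 5, 6 and 6 from the highest in the order of ABA, propyl and butyl derivative, and that of ABCG25 ranked 9, 10 and 9.

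ABCG40, ABCG31 and ABCG30 belong to the larger, PDR-type proteins. Of 12 other such genes 9 were tested, and 1 rose and 6 fell with ABA, 1 and 8 with 3'-propyl ABA, and 3 and 5 with 3'-butyl ABA. The shares of all tested genes that rose were 22.0%, 27.5% and 25.1% in that order, and those that fell 24.7%, 38.5% and 25.6%. The median log2 fold changes of the 9 were -0.66, -1.03 and -0.47. ABCG36, also called PEN3 and active in defence at sites of fungal entry, fell from 416 ± 43.7 TPM in DMSO to 182 ± 12.3 with ABA, 68.7 ± 4.1 with 3'-propyl ABA and 249.6 ± 11.3 TPM with 3'-butyl ABA. ABCG35 fell from 17.3 ± 8.03 to 3.23 ± 0.563 TPM with 3'-propyl ABA (log2 fold change -2.04, adjusted p = 6.28e-05).

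The MATE genes listed with DTX50 fell or were not called. Of 8 such genes 5 were tested, and 0 rose with any compound while 4 fell with ABA, 4 with 3'-propyl ABA and 3 with 3'-butyl ABA. In that order, 22.0%, 27.5% and 25.1% of all tested genes rose, and 24.7%, 38.5% and 25.6% fell. AT1G11670 fell from 29.8 ± 11.2 TPM in DMSO to 6.70 ± 1.39 with 3'-propyl ABA, ADS1 (AT4G29140) from 22.9 ± 1.82 to 7.12 ± 0.683 TPM, and AT4G23030 from 2.48 ± 0.764 to 0.630 ± 0.435 TPM. The difference between DTX50 and these genes was not tested.

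In the NPF4 list 3 of 6 genes besides NPF4.6 were tested, and with each compound 1 rose and 2 fell. Over all tested genes 22.0% rose and 24.7% fell with ABA, 27.5% and 38.5% with 3'-propyl ABA, and 25.1% and 25.6% with 3'-butyl ABA. NPF4.3 rose from 9.90 ± 1.32 TPM in DMSO to 21.5 ± 1.1 with ABA and 27.9 ± 1.54 TPM with 3'-propyl ABA. NPF4.4 fell to 2.99 ± 0.0887 TPM with 3'-butyl ABA from 6.18 ± 0.638, and AT5G62730 fell from 2.65 ± 0.545 TPM to 0.0434 ± 0.0751 with 3'-propyl ABA. NPF4.1 and NPF4.5, reported as further ABA importers, were under the filter, with at most 1.64 and 0.185 TPM in any library.

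The 4 other tested genes linked to ABA movement differed by at most 1.17 on the log2 scale against DMSO. ABCC1 and ABCC2 encode vacuolar pumps that take up the glucosyl ester of ABA, its storage form. ABCC1 was at 49.6 ± 3.65 TPM in DMSO and rose to 73.8 ± 2.08 with 3'-butyl ABA (0.57, adjusted p = 2.77e-05), fell to 41.0 ± 1.85 with 3'-propyl ABA (-0.26, adjusted p = 0.00467) and was at 53.6 ± 2.23 TPM with ABA (adjusted p = 0.205). ABCC2 rose with 3'-propyl ABA (0.61) and with 3'-butyl ABA (0.68) and was not called with ABA (0.23, adjusted p = 0.148). AT2G40460 rose with every compound, by 0.86 with ABA, 1.17 with the propyl and 0.95 with the butyl derivative. ABCG18 was not called against DMSO by any compound (-0.34 to 0.34), and ABCG17 did not exceed 0.215 TPM in any library.

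**Figure D5:**
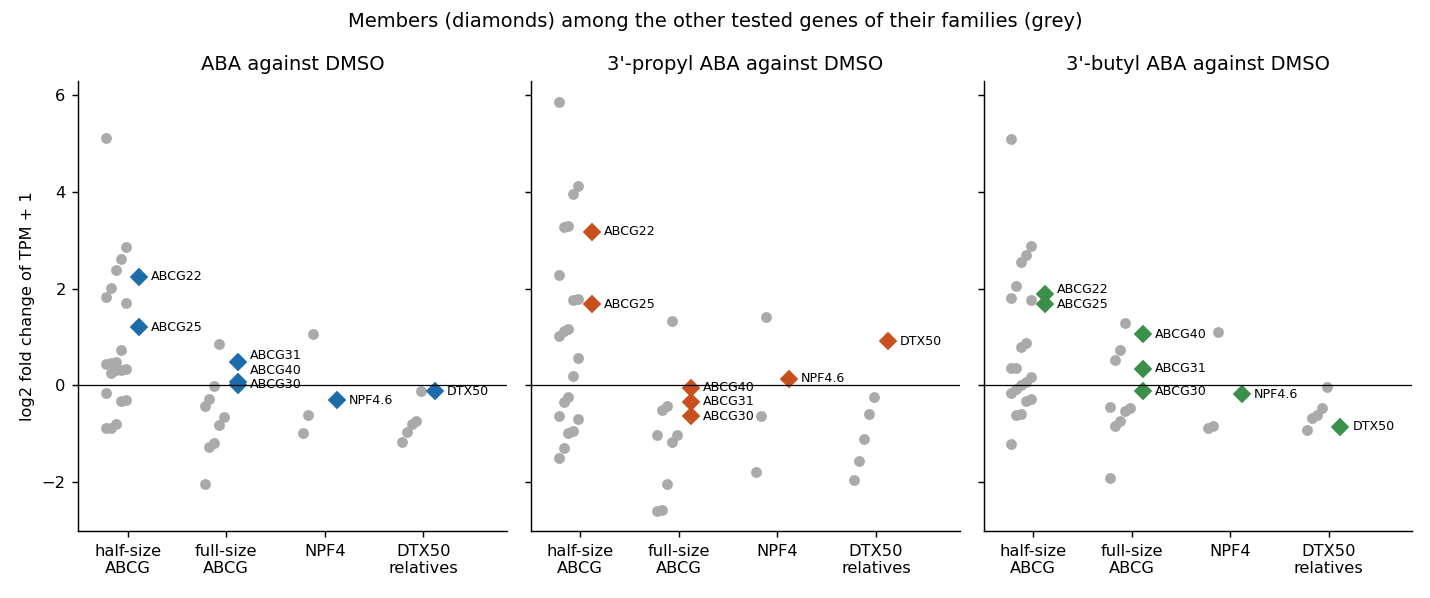
Log2 fold change of TPM + 1 against DMSO of the ABA transporter genes (coloured diamonds) and of the other tested genes listed with them (grey points), 1 panel per compound. The NPF4 and MATE lists hold only a part of the NPF and MATE families. Here half-size ABCG stands for the WBC-type and full-size ABCG for the PDR-type proteins. ABCG22 and ABCG25 lie in the upper part of the WBC-type genes, and DTX50 with 3'-propyl ABA lies above the 5 tested MATE genes listed with it.

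The genes whose log2(TPM + 1) followed each transporter most closely over the 12 libraries were named by Pearson's r, as a description, since libraries of 1 treatment share that treatment. For ABCG22 these were RD20, a caleosin gene of drought response (r = 0.997), and PGM3, a phosphoglucomutase gene (r = 0.996). For ABCG25 they were AT3G18350 (r = 0.989) and the heat shock factor gene HSFA6A (r = 0.987), which was listed at 0 in DMSO. For DTX50 they were AGP21, an arabinogalactan protein gene (r = 0.977), and AT1G59710 (r = 0.972).

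ABCG40 was followed by ABCB4, a root auxin transporter gene (r = 0.954), and GSTU25, a glutathione transferase gene (r = 0.937). ABCB4 shared its spread within treatments, at 42.6, 41.1 and 66.1 TPM in the DMSO libraries and 57.2, 61.4 and 32.4 TPM in the ABA libraries. ABCG31 was followed by AT5G14370 (r = 0.967) and HON4 (r = 0.965), ABCG30 by AT3G06035 (r = 0.955) and the replication gene MCM4 (r = 0.952), and NPF4.6 by the amino acid permease gene AAP3 (r = 0.944) and AT3G05390 (r = 0.932). By Spearman's rho, 2 of these 14 genes were among the closest pair of their transporter.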

How the data were processed

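Per the labels' protocols, strand-specific libraries of poly(A) RNA gave paired reads on an Illumina HiSeq. The submitters' processing notes name bcl2fastq and TAIR10; for aligner, counter and annotation version, nothing was given in the sources used here. Deposited values are TPM made by the authors, 1 column per library. Of values below 200 reads, 98.7% to 98.9% per library were whole multiples of 1 step per exon length (within 0.01 of a read), which gave the read numbers. They cover counting error only. From log2(TPM + 1), with means of 1 TPM or more required, a linear model with a mean for each treatment was estimated in limma 3.58.1 (R 4.3.3, eBayes with trend and robust, two-sided tests). It had 8 residual degrees of freedom and a median prior of 4.05. The fit was tested on simulated data, in which 67, 67 and 66 genes were changed by 0.5, 1 and 2 on the log2 scale between ABA and DMSO. It called 13.4%, 82.1% and 98.5% of them in that order, and 0 genes in a comparison without changes. Far fewer genes changed there than were called in these data, so these shares do not carry over directly. Other steps used Python 3.11.15 and pandas 2.3.3. A count test had been planned for count files and was not used on TPM.

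The members, gene lists and markers were chosen with earlier results of these data known. Named genes are the 7 members, the 2 genes most correlated with each, up to 3 called genes per family list with the largest change against DMSO and no overlap of libraries, and 7 genes linked to ABA movement. ABCG42 is given also as a neighbour. Alternatives were another pseudocount, no filter, median-of-ratios scaling, quantile normalization, a replicate block, the 6 compared libraries alone and each library left out. Gene models and upstream windows are those of the RefSeq TAIR10.1 assembly.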

Additional observations from a re-analysis of the deposited data

How the results depend on the processing

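Of 798 values of the 7 genes recomputed under alternatives, 732 kept their direction and their side of the threshold, 36 lost and 11 gained a call, and 19 changed sign, all of them of values that were not called. With no filter, the replicate block or the 6 compared libraries alone, the fold change could not move, so the direction was fixed. The same holds where the library left out was of a treatment not compared, so the 732 overstate how stable the directions are. ABCG40 against DMSO changed sign with 3'-propyl ABA under median-of-ratios scaling (0.061) and quantile normalization (0.10), and between 3'-propyl ABA and ABA under the latter (0.041). Quantile normalization gave -0.0036 for ABCG30 with ABA against DMSO and -0.0070 for ABCG25 between the derivatives, which was -0.12 with median-of-ratios scaling. With single libraries left out, ABCG40 ranged from -0.24 to 0.57 with ABA and from -0.32 to 0.44 with 3'-propyl ABA against DMSO, and from -0.52 to 0.19 between them. ABCG30 with ABA ranged from -0.029 to 0.093 and ABCG25 between the derivatives from -0.17 to 0.11. The causes were not tested. The number of the 7 genes called between 3'-butyl ABA and ABA, 1, was 2 with a replicate block, 0 with the 6 compared libraries alone, and 0 to 2 with single libraries left out. Over all genes that comparison called 313, 755 with the block and 9 to 585 with single libraries left out (9 without 3'-butyl ABA replicate 1). With the other comparisons, leaving out single libraries gave 3 to 4 called with ABA, 4 to 5 with 3'-propyl ABA and 3 to 4 with 3'-butyl ABA against DMSO, and 5 to 6 for 3'-propyl ABA against either other compound.

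The replicate block made ABCG25 a call between 3'-butyl ABA and ABA (adjusted p = 0.0455) and ended that of ABCG31 with 3'-butyl ABA (0.0530), and changed 0 other calls. Same-numbered libraries correlated at -0.168 to 0.329 in their deviations, over 0.1 in 9 of 18 pairs, and 3 of 12 libraries correlated best with their own number throughout. Libraries numbered 1 correlated at 0.115 to 0.329 in every pair. Those numbered 2 correlated at 0.205 to 0.270 among DMSO and the derivatives. With these, ABA replicate 3 correlated at 0.198 to 0.392 and ABA replicate 2 at -0.168 to -0.0525. Some libraries thus shared deviations by number, but the labels do not say that numbers pair libraries, and the main fit did not pair them. Median-of-ratios scaling moved the share of higher genes among all called from 37.0% to 53.9% for 3'-propyl ABA against ABA and from 64.0% to 47.3% for 3'-butyl ABA against 3'-propyl ABA. Depth limits ABCG31 most, with 48 to 135 reads per library, and over all genes the 95% interval reached a median of 0.261 to either side.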
